A study of Mus musculus with 9 samples.

Results

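The tripartite motif (TRIM) genes encode a family of ubiquitin ligases, most of which carry a RING domain, B-box zinc fingers and a coiled coil, followed by a variable end that picks the substrate. The RING domain takes ubiquitin from a conjugating enzyme and places it on the target, which can mark it for destruction or, with other chain types, switch a signalling complex on. In macrophages and dendritic cells the family is best known for tuning the sensors of viral RNA and DNA and the Toll-like receptor pathways, and many of its members are themselves induced by interferon. Members were the genes whose only symbol in the platform annotation began with Trim and a number, 59 of the 19938 genes with such a probe set. Each member had 1 probe set that named it alone, so no choice among such probe sets was needed. A further 6 probe sets carried several symbols of which at least 1 was a Trim gene, among them those of Trim5, Trim17 and Trim30b, and were not used. Those that name Trim5 also name the member Trim12c, and 1 of them names Trim12a as well. Their levels are not given here.

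RNA was measured on Affymetrix mouse gene arrays in 3 cell populations, with 3 biological replicates of each and 9 arrays in all. T cell zone macrophages (TZM) came from lymph nodes and were sorted as GFP-high, MertK+, CD11b+ and CD169 negative cells. Microglia came from the brain and were sorted as GFP-high, CD11b+ and CD45+ cells. CD8a+ dendritic cells (DC) were gated on CD8a and on high CD11c and class II molecules, without CD64, and came from lymph node according to the sample fields and from spleen according to the sorting protocol. All mice were CX3CR1 gfp+/-, so in every population 1 copy of the fractalkine receptor gene was replaced by the reporter, and that reporter was part of the gate of TZM and microglia. The labels give no age, and do not say whether a replicate is 1 mouse or a pool. Values are log2 levels after robust multi-array averaging (RMA), given as mean ± SD with n = 3 in each population. A gene counts as called, and as higher or lower without further words, at a limma adjusted p under 0.05 with a log2 fold change of at least 1 in size.

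The median levels of the marker lists followed the labels, while single markers were shared between populations or missing from 1 of them. The median level of 7 macrophage markers was 11.37 to 12 in TZM, 11.57 to 11.61 in microglia and 4.77 to 5.27 in DC, and that of 7 markers of CD8a+ DC was 5.69 to 5.88, 4.99 to 5.11 and 10.63 to 10.65. That of 5 microglia markers was 4.92 to 5.18 in TZM, 11.44 to 11.50 in microglia and 4.36 to 4.62 in DC. All 5 were lower in TZM than in microglia, but 3 were higher in TZM than in DC. Among these, Tmem119 and P2ry12 were at 9.18 ± 0.28 and 9.80 ± 0.07 in TZM. The macrophage markers Timd4 and Pla2g2d were at 5.03 ± 0.48 and 5.27 ± 0.09 in microglia, against 11.26 ± 0.24 and 12.13 ± 0.09 in TZM. Array medians over all genes ran from 4.90 to 5.02. A pair of arrays stood apart from the others of their population. In TZM replicate 2, 6.80% of all genes lay at least 0.5 from the median of the 3 TZM arrays, and in microglia replicate 2, 2.94% did so from the microglia median, against 0.507% to 2.20% in the other arrays. TZM replicate 2 had the highest neutrophil transcript S100a8 (9.28, against 5.89 and 7.32 in replicates 1 and 3). The salivary transcripts Bpifa2 and Smr3a were high in every TZM array, at 10.24, 12 and 9.29 and at 9.19, 10.42 and 8.41, against 3.13 to 4.45 in microglia and DC, and both were called higher in TZM in each comparison, with log2 fold changes of 6.06 to 6.50. Their part in the results was not tested. Of 5 neutrophil markers 2 were called higher in TZM than in each other population, and the list's median level was 4.22 to 4.44 in TZM, 3.95 to 4.04 in microglia and 4.12 to 4.32 in DC. Of 5 T cell markers 3 were higher and 0 lower in TZM over microglia, and 1 was higher and 0 lower in TZM over DC. Of 4 B cell markers 1 was higher and 1 lower in TZM over DC. These were Cd79b, at 9.27 ± 0.87 in TZM and 6.63 ± 0.33 in DC, and Ms4a1, at 4.82 ± 0.35 and 7.11 ± 0.29. The part of lymphocyte RNA was not tested. The choroid plexus transcript Ttr was at 12.15 and 11.83 in microglia replicates 1 and 3, and at 5.48 in replicate 2.

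Of the 59 TRIM genes, 17 were at a level of at least 6 in every array, 9 in some of the arrays and 33 in none. The array gives no detection call, so levels under 6 are not separated from background here, and a fold change against such a level may understate the difference. In bulk samples like these, fewer cells that express a gene and less of its RNA per cell cannot be told apart. The median SD among replicates of the 59 members was 0.14 in TZM, 0.11 in microglia and 0.09 in DC, against 0.12, 0.10 and 0.10 over all genes.

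Trim35, Trim59, Trim12a and Trim12c were lower in TZM than in DC, with log2 fold changes of -2.05, -1.85, -1.02 and -1.18, and Trim47 was higher, at 1.4. In microglia against DC, Trim59, Trim35, Trim25, Trim12c and Trim7 were lower and Trim47 and Trim13 were higher. Between TZM and microglia 1 member, Trim25, was called, higher in TZM by 1.04. In all, 8 members were called in at least 1 comparison and 51 in none.

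Without a filter on level, the TRIM genes were called at close to the rate of all genes in both comparisons with DC. In TZM over DC 5 of 59 were called (8.47%), 1 higher and 4 lower. The same rule took 8.74% of the whole table, 4.71% upward and 4.03% downward. Without TZM replicate 1 or without DC replicate 1 the count fell to 3, which were Trim35, Trim47 and Trim59 in each case. In microglia over DC 7 of 59 were called (11.9%), 2 higher and 5 lower, beside 11.2% of the whole table, 5.15% upward and 6.01% downward. In TZM over microglia 1 of 59 was called (1.69%), against 7.65% of the whole table, 4.25% upward and 3.4% downward. That count became 0 without microglia replicate 1. The median log2 fold change of the members was -0.01, -0.02 and 0.01 in TZM over DC, TZM over microglia and microglia over DC, beside 0.02, 0.01 and 0.01 over all genes. The 3 comparisons share arrays pairwise and are not independent of each other.

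**Figure D1:**
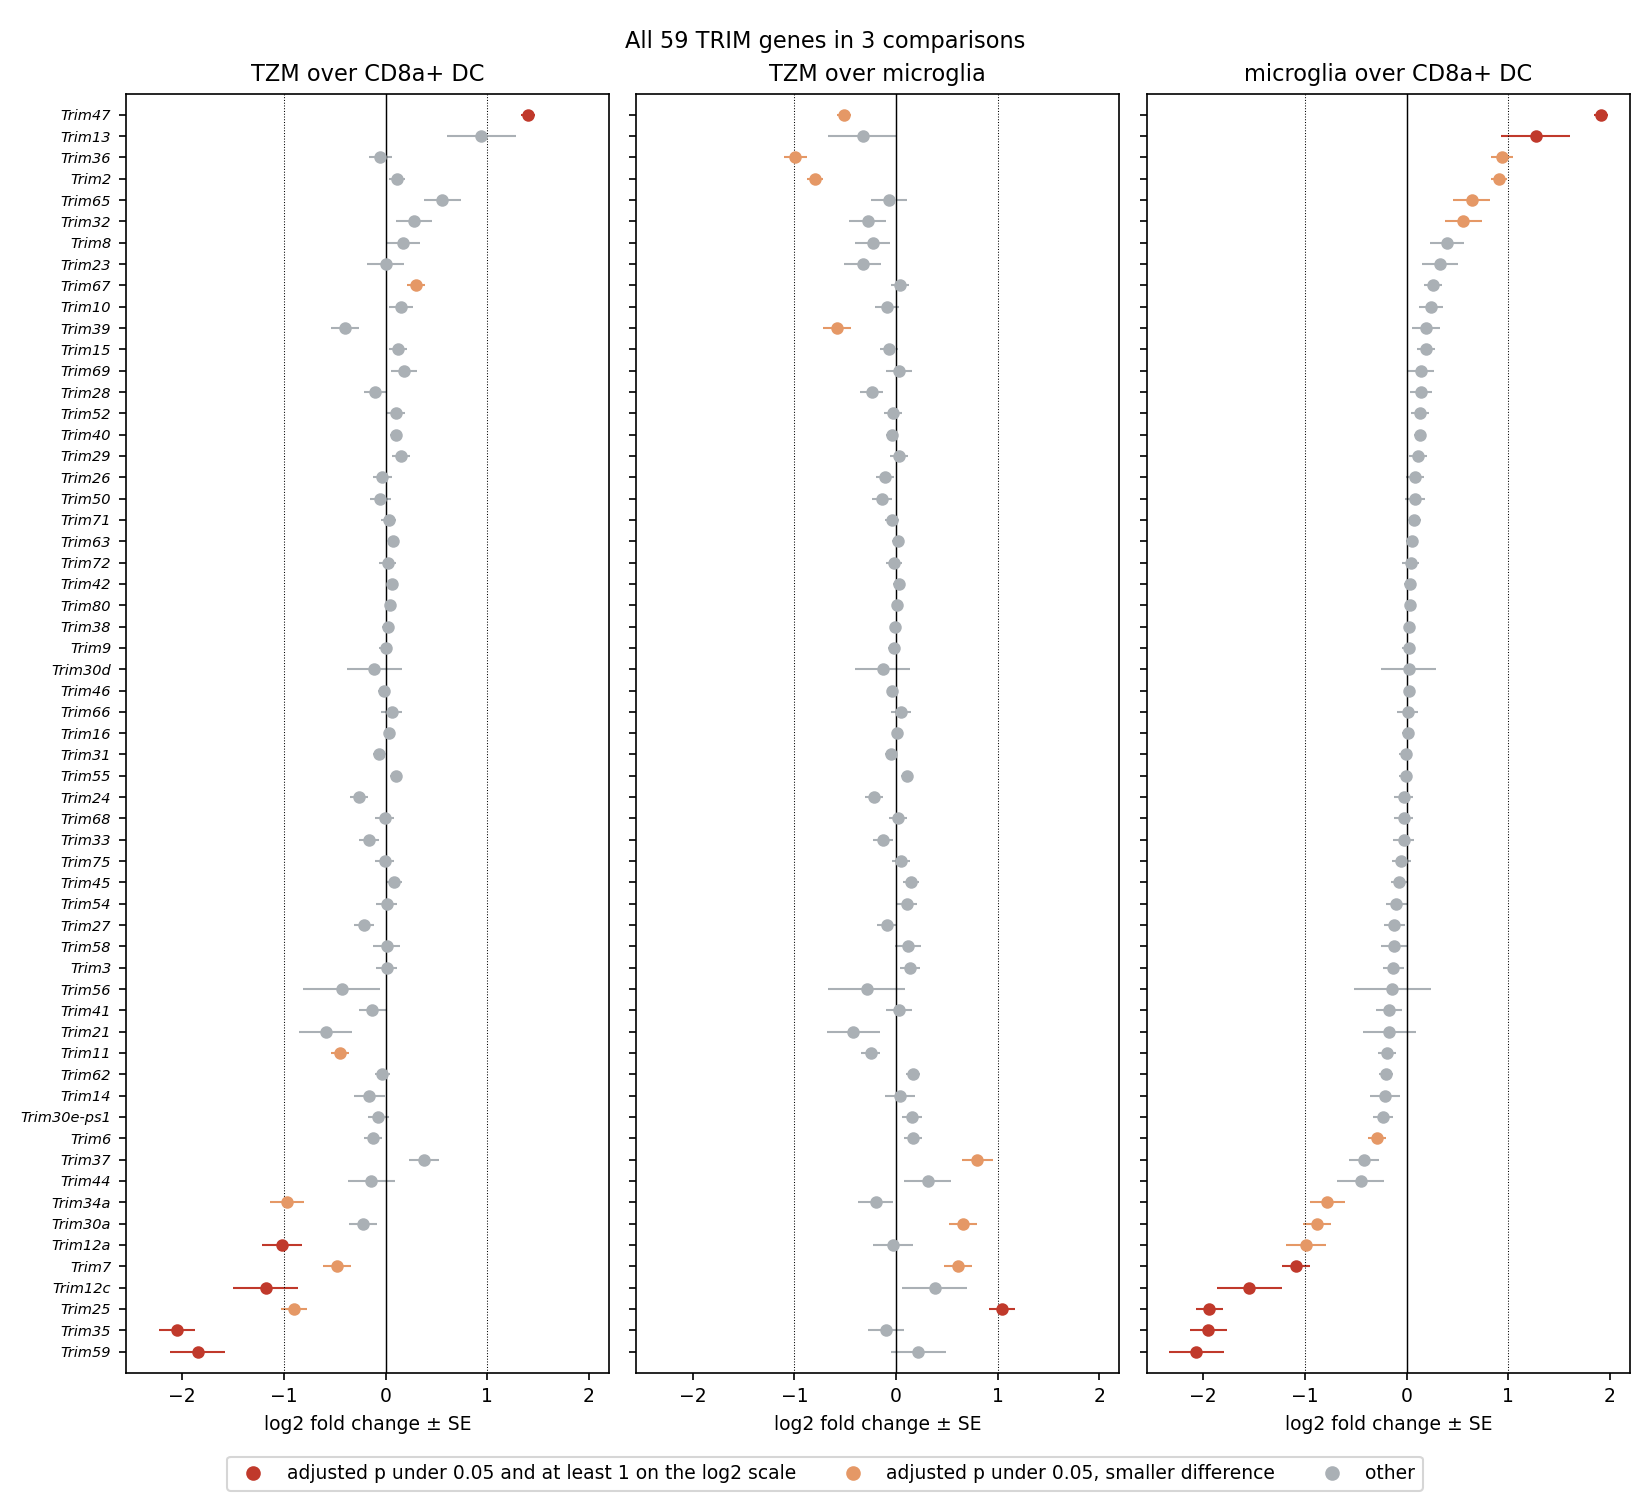
Log2 fold change and its standard error (SE, horizontal axis) of each of the 59 TRIM genes (rows, ordered by the difference of microglia over DC) in 3 comparisons. Red points are called, orange points have an adjusted p under 0.05 with a smaller difference, and most points lie near 0, with Trim47 at the top and Trim59 and Trim35 at the bottom of the outer panels.

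A larger set passed the adjusted p without the minimum fold change. It held 10 members in TZM over DC (2 higher, 8 lower), 8 in TZM over microglia (4 each way) and 15 in microglia over DC (6 higher, 9 lower). Of all genes 20.2% passed in TZM over DC (9.83% up, 10.4% down), 19.4% in TZM over microglia (10% up, 9.39% down) and 25.1% in microglia over DC (12% up, 13.1% down). At a level of at least 6 in at least 3 arrays were 24 members. Such a filter can keep a gene through the population where it is high. Of these 24, 3 (12.5%), 1 (4.17%) and 3 (12.5%) were called in the same order of comparisons. The shares of all genes kept were larger, at 19.7%, 17.3% and 25.6%. The members with the smaller differences are given with their values in the paragraphs on each group.

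Trim25 attaches ubiquitin chains to the RNA sensor RIG-I, the product of Ddx58, and helps it to signal. Its level was 7.62, 7.66 and 7.44 in TZM, 6.41, 6.83 and 6.38 in microglia, and 8.34, 8.55 and 8.55 in DC. No array of 1 population overlapped with those of another, and the order was DC, TZM, microglia. Trim25 was 3.83-fold lower in microglia than in DC (log2 fold change -1.94, SE 0.13, adjusted p = 8.6e-06). It was 2.05-fold higher in TZM than in microglia (log2 fold change 1.04, SE 0.13, adjusted p = 0.00061), a call that ended, at 0.96 to 0.99 and with adjusted p of 0.0018 to 0.0038, under quantile normalization and without TZM replicate 2, microglia replicate 1 or microglia replicate 3. In TZM over DC its log2 fold change was -0.90 (SE 0.13, adjusted p = 0.0012), short of the minimum fold change.

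Trim13, anchored in the membrane of the endoplasmic reticulum, was the other called member of the group that acts on innate sensing. It was at 4.16, 4.21 and 3.77 in TZM, 4.44, 5.15 and 3.54 in microglia and 3.05, 3.25 and 3.00 in DC. All 9 levels were under 6, and microglia spread the most of all members in that population, with an SD of 0.80. Its log2 fold change was 1.27 in microglia over DC (SE 0.34, adjusted p = 0.026) and 0.94 in TZM over DC (adjusted p = 0.099). The microglia call was lost in 6 of 18 alternatives, with a log2 fold change of 0.89 without microglia replicate 2.

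The other 11 members of this group of 13 were not called in any comparison. Trim65, a ligase of the RNA sensor MDA5, had log2 fold changes of 0.56 in TZM over DC (adjusted p = 0.061) and 0.64 in microglia over DC (adjusted p = 0.032). Its levels of 5.03 to 5.09 in DC did not overlap with those of 5.26 to 5.94 in TZM or 5.46 to 5.96 in microglia. Trim21, the cytosolic antibody receptor, was at 6.78, 5.81 and 6.48 in TZM, 6.70, 6.45 and 7.18 in microglia and 7.10, 6.97 and 6.78 in DC. Its lowest level was that of TZM replicate 2, and its log2 fold change in TZM over DC was -0.59 (adjusted p = 0.17). Trim56, which acts on the DNA sensing adaptor STING, was at 7.57, 6.20 and 7.88 in TZM, 7.25, 7.61 and 7.65 in microglia and 7.57, 7.75 and 7.60 in DC. Here too TZM replicate 2 was the lowest, and the TZM SD of 0.89 was the widest of any member in that population. Trim14, Trim23, Trim26, Trim27 and Trim8 had levels of at least 6 in every array and log2 fold changes between -0.33 and 0.40, with adjusted p of 0.14 or more. Trim31, Trim38 and Trim40 stayed between 3.53 and 4.11 in all arrays.

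The RNA sensor that Trim25 serves ran in another order across the populations. Ddx58 was at 8.55 ± 0.20 in TZM, 6.84 ± 0.07 in microglia and 4.33 ± 0.07 in DC, so it was lowest where Trim25 was highest. The log2 fold changes of Ddx58 were 4.21 in TZM over DC (adjusted p = 4.5e-08), 1.71 in TZM over microglia (adjusted p = 7.1e-06) and 2.51 in microglia over DC (adjusted p = 4.0e-07). Mavs, the mitochondrial adaptor of RIG-I, was at 8.32 ± 0.58 in TZM, 7.58 ± 0.16 in microglia and 6.56 ± 0.35 in DC, and was called higher in TZM over DC (log2 fold change 1.76, adjusted p = 0.0023) and in microglia over DC (1.02, adjusted p = 0.030). Ifih1, which encodes MDA5, was higher in TZM than in DC by 1.28 and than in microglia by 1.34 (adjusted p = 0.0068 and 0.0058). Of the 19 measured genes listed for RNA and DNA sensing, 4 were higher and 0 lower in TZM over DC (4.71% and 4.03% of all genes), the fourth being Sting1 (2.09). In TZM over microglia 3 were higher and 0 lower (4.25% and 3.4% of all genes), with Tank, an adaptor of the kinase TBK1, at 1.98. In microglia over DC 3 were higher and 1, Tank at -1.83, was lower (5.15% and 6.01% of all genes). Called in either direction were 21.1%, 15.8% and 21.1% of the list in the same order of comparisons. Among all genes at a level of at least 6 in at least 3 arrays, 19.7%, 17.3% and 25.6% were called. The list's medians were 0.01, -0.07 and 0.11.

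Of 15 listed genes for enzymes that activate ubiquitin or its relatives or hand them to ligases, 4 were lower and 0 higher in microglia over DC. That is 26.7% of the list, beside 11.2% of all genes called in either direction and 6.01% called lower. Of the 15 genes, 13 reached a level of 6 in at least 3 arrays, and the called Ube2e2 was not among them. Of all genes that reached such a level, 25.6% were called in either direction in this comparison. Ube2l6, the conjugating enzyme for the ubiquitin-like modifier ISG15, was at 6.25 ± 0.03 in TZM, 5.26 ± 0.12 in microglia and 7.04 ± 0.23 in DC, with a log2 fold change of -1.79 in microglia over DC (adjusted p = 7.1e-06). Ube2n and Ube2v1, which together build the chains used in signalling, had log2 fold changes of -1.02 and -1.17 there (adjusted p = 0.0025 and 7.1e-05), and Ube2e2 of -1.10 (adjusted p = 0.00087). Ube2n had 2 probe sets and Ube2v1 had 3, and only the brightest of each is given. In TZM over DC, Ube2e2 alone was called, at -1.04 (adjusted p = 0.0016), and in TZM over microglia 0 genes of the list were called by limma (5 at an unadjusted p under 0.05). Without TZM replicate 2 the called genes were Uba6, Ube2e2 and Ube2w, all 3 lower, in TZM over DC and Ube2l6 and Ube2v1, both higher, in TZM over microglia. Without the minimum fold change, limma's adjusted p passed for 5 of the 15 in TZM over DC, 4 in TZM over microglia and 7 in microglia over DC. Ube2d1, Ube2d2a and Ube2d3, the usual partners of TRIM ligases in the test tube, were not called in any comparison, with log2 fold changes of -0.03 to 0.35. For Ube2d2a and Ube2d3, with 2 and 3 probe sets, this too is the brightest alone.

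**Figure D2:**
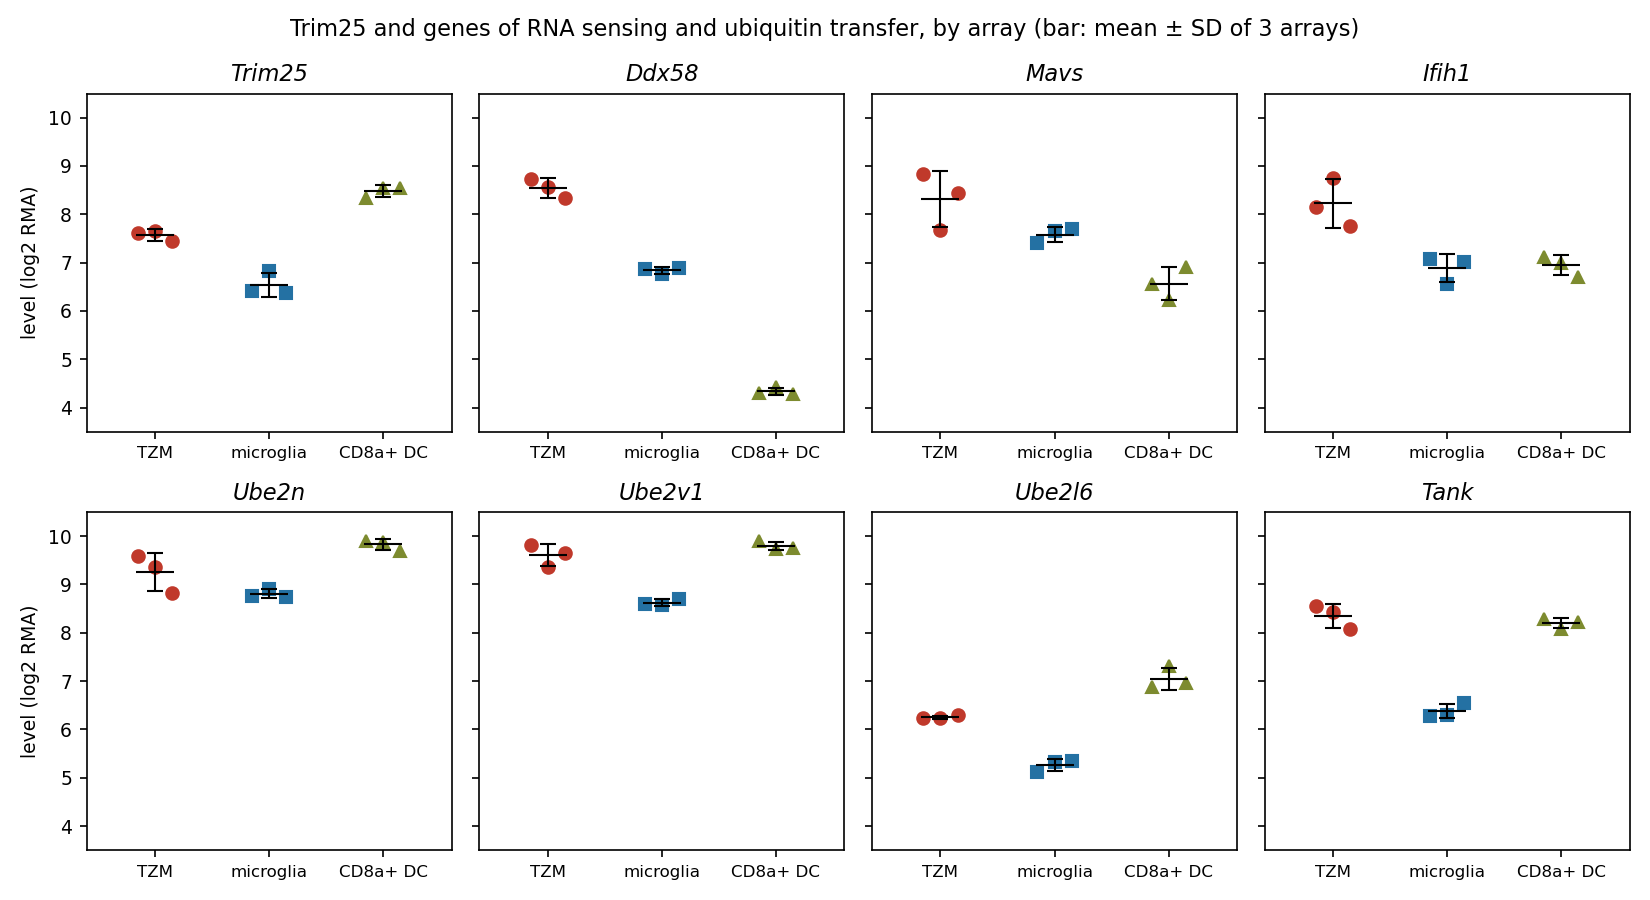
Log2 RMA levels (vertical axis) of Trim25, of genes of RNA sensing and of ubiquitin conjugating enzymes in the 3 arrays of TZM, microglia and DC (points), with mean and SD (black bars). Trim25 is highest in DC, where Ddx58 lies at 4.33 ± 0.07, and Ube2v1 and Ube2l6 are lowest in microglia.

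Around Trim5 lies a run of neighbouring TRIM paralogs, known in mice as the counterpart of the locus of the retroviral restriction factor TRIM5. In the RefSeq gene table of GRCm38.p6 it holds 10 protein-coding TRIM genes in the order Trim6, Trim34a, Trim5, Trim12a, Trim34b, Trim12c, Trim30b, Trim30c, Trim30a and Trim30d, with 1 other protein-coding gene inside it. Of these, 6 were members, and Trim30e-ps1, annotated as a pseudogene, was a 7th member of the group. Copies this alike may share probes, so a level here can hold signal of a neighbour, which was not tested.

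Each of the upstream stretches is shown because interferon induction is the best known trait of these genes. They are the last 150 bases of the RefSeq promoter windows of GRCm38.p6, from 100 bases before the annotated start, read 5′ to 3′ on the gene's strand. Capitals mark GAAA, any 2 bases and GAAA again, or its reverse complement, the core of the interferon-stimulated response element. Trim21 is added as an interferon-induced member outside the run, and in Trim25 the capitals mark GGAA, any 2 bases and GAAA, a composite site for ETS and IRF factors.
Trim12a, chr7:104315446-104315595, minus strand: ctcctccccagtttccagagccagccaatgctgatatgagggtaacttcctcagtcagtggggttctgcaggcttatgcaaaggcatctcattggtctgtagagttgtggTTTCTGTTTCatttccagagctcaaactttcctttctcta
Trim12c, chr7:104353300-104353449, minus strand: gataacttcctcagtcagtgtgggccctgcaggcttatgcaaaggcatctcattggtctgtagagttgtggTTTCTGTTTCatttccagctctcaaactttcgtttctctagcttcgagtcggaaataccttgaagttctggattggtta
Trim34a, chr7:104244357-104244506, plus strand: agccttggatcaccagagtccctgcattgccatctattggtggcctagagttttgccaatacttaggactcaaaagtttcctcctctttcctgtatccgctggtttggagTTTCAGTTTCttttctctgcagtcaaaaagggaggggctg
Trim30a, chr7:104465144-104465293, minus strand: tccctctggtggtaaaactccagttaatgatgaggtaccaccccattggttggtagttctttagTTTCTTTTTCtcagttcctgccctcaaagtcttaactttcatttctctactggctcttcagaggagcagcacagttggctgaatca
Trim30d, chr7:104507800-104507949, minus strand: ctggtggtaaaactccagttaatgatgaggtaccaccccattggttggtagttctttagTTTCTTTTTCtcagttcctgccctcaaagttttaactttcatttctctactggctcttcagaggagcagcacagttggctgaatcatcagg
Trim21, chr7:102565433-102565582, minus strand: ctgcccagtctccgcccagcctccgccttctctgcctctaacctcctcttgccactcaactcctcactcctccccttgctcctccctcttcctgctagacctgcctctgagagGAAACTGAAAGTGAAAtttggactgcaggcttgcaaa
Trim25, chr11:88999303-88999452, plus strand: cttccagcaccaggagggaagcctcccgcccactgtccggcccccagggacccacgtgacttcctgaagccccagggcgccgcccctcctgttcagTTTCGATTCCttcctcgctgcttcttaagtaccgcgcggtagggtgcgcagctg

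Windows were given for 46 of the 59 members. The interferon element core, on either strand, stood in at least 1 window of 8 of these 46 (17.4%): Trim12a, Trim12c, Trim2, Trim21, Trim26, Trim30a, Trim30d and Trim34a. Over all 27025 genes with such windows 3.99% held it. Of the 6 members of the run with a window, Trim6 was without a match in these letters. The match began 10 bases after the annotated start in Trim12a and Trim34a and 29, 36 and 41 bases before it in Trim12c, Trim30a and Trim30d. Trim30a has 2 windows, of which the more upstream is shown, and in the other the match began 2 bases after the start. Trim21 and Trim26 each held a pair of overlapping matches. The composite motif stood in 6 of the 46 (13.0%), Trim12a, Trim12c, Trim15, Trim25, Trim40 and Trim44, against 3.16% of all genes, and in Trim12a and Trim12c it overlapped the other motif. The windows of Trim12a and Trim12c were 94.6% identical over 261 aligned positions, and those of Trim30a and Trim30d 93.9% over 294, so these matches are not independent of each other.

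The members of the run differed in their order across the populations. Trim12a, a rodent relative of TRIM5, was at 6.29, 6.94 and 6.96 in TZM, 6.95, 6.61 and 6.73 in microglia and 7.97, 7.49 and 7.80 in DC. All DC arrays lay above all others, and the macrophage populations overlapped. Its log2 fold change was -1.02 in TZM over DC (SE 0.20, adjusted p = 0.0066) and -0.99 in microglia over DC (SE 0.20, adjusted p = 0.0061), which put only the first past the minimum fold change. The TZM call ended without TZM replicate 1 (-0.80) or DC replicate 1 (-0.92), and the microglia difference passed the minimum under median centring (-1.02) and without DC replicate 2 (-1.12) or microglia replicate 1 (-1.09).

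Trim12c, its near copy, was at 5.57, 5.61 and 5.23 in TZM, 4.94, 4.84 and 5.51 in microglia and 7.28, 6.72 and 5.94 in DC. DC again lay above the others without overlap, but spread more than any other member in that population, with an SD of 0.67. Trim12c had a log2 fold change of -1.18 in TZM over DC (SE 0.32, adjusted p = 0.033) and -1.55 in microglia over DC (SE 0.32, adjusted p = 0.0071). The TZM call was lost in 10 of 18 alternatives, with log2 fold changes of -0.86 to -1.53 and adjusted p of 0.0052 to 0.11 over all 18, among them the replicate block at -1.18 (adjusted p = 0.061). The microglia call held in each of its alternatives.

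Trim34a, an interferon-responsive relative, was at 5.62, 6.16 and 5.60 in TZM, 6.0, 6.16 and 5.80 in microglia and 6.79, 6.90 and 6.60 in DC. The DC arrays lay apart above the other 6. Its log2 fold changes were -0.97 in TZM over DC (SE 0.17, adjusted p = 0.0033) and -0.78 in microglia over DC (SE 0.17, adjusted p = 0.0087), both short of the minimum. The TZM difference was past it under median centring, quantile normalization and array weights, and without TZM replicate 2 (-1.16) or DC replicate 3 (-1.05).

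Trim30a, which restrains Toll-like receptor signalling by removing TAB2 and TAB3, showed another order. It was at 9.66, 10.20 and 9.78 in TZM, 9.08, 9.22 and 9.36 in microglia and 10.18, 10.05 and 10.06 in DC. Microglia lay below the other populations without overlap, and TZM and DC overlapped. The log2 fold change was 0.66 in TZM over microglia (SE 0.14, adjusted p = 0.011), -0.88 in microglia over DC (SE 0.14, adjusted p = 0.0016) and -0.22 in TZM over DC (adjusted p = 0.37). Tab2 was at 9.08 ± 0.12 in TZM, 9.91 ± 0.15 in microglia and 9.34 ± 0.08 in DC, with a log2 fold change of -0.84 in TZM over microglia (adjusted p = 0.00036). Tab3 was at 6.19 ± 0.24 in TZM, 6.18 ± 0.10 in microglia and 6.17 ± 0.20 in DC, with a log2 fold change of 0.01 in TZM over microglia (adjusted p = 0.97). Levels of the TAB2 and TAB3 proteins, on which Trim30a acts, were not measured.

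Trim30d, next to Trim30a, was at 8.35, 9.29 and 8.28 in TZM, 8.69, 8.62 and 9.0 in microglia and 8.99, 8.49 and 8.76 in DC, and all populations overlapped. Its highest level was that of TZM replicate 2, and its log2 fold changes were -0.11, -0.13 and 0.02 in TZM over DC, TZM over microglia and microglia over DC (adjusted p = 0.81 or more). Trim6 and the pseudogene Trim30e-ps1 stayed at or under 4.34 in every array, and Trim6 had a log2 fold change of -0.29 in microglia over DC (adjusted p = 0.036). Over the 6 members of the run and the pseudogene, 2 of 7 were lower and 0 higher in TZM over DC, 0 were called in TZM over microglia by limma (1 at an unadjusted p under 0.05) and 1 was lower in microglia over DC, beside 8.74%, 7.65% and 11.2% of all genes called. Among all genes at a level of at least 6 in at least 3 arrays, 19.7%, 17.3% and 25.6% were called.

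**Figure D3:**
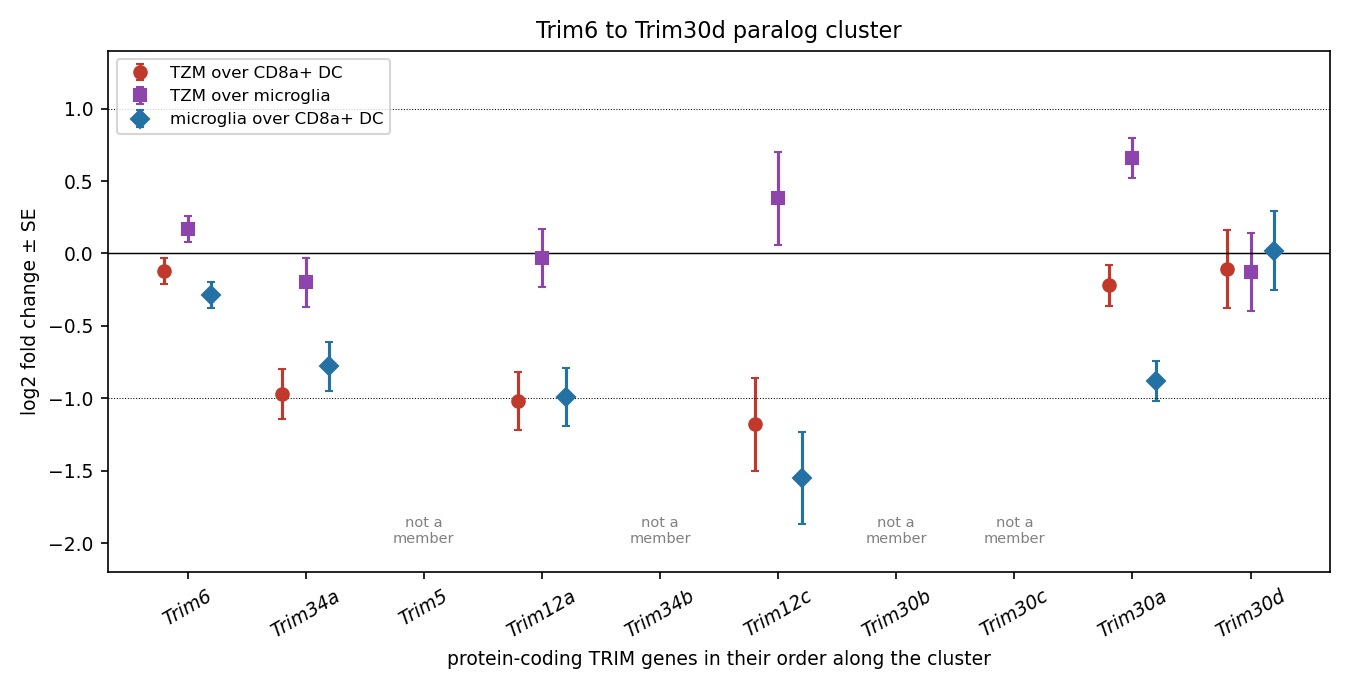
Log2 fold change with SE (vertical axis) of the TRIM genes from Trim6 to Trim30d in their order on the chromosome (horizontal axis, not to scale) in 3 comparisons. Trim34a, Trim12a and Trim12c lie between -0.78 and -1.55 in both comparisons with DC, while Trim30a is at -0.22 in TZM over DC and Trim30d lies between -0.13 and 0.02.

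Of 21 other listed genes induced by interferon 9 were higher and 1 lower in TZM over DC (4.71% and 4.03% of all genes), with Ifit3 at 3.00, Bst2 at 1.87, Parp14 at 1.80 and Oas1a at 1.76. In TZM over microglia 9 were higher and 0 lower (4.25% and 3.4% of all genes), with Irf7 at 2.94 and Bst2 at 2.85. In microglia over DC 2 were higher and 4 lower (5.15% and 6.01% of all genes), with Irf7 at -2.70 and Mx1 at -1.98. Called in either direction were 47.6%, 42.9% and 28.6% of the list. Among all genes at a level of at least 6 in at least 3 arrays, 19.7%, 17.3% and 25.6% were called. The list's medians were 0.44, 0.73 and -0.10. TZM replicate 2 had the highest TZM level of several of these genes, among them Ifit1 (6.27, 6.78 and 5.28 in TZM). Without that array 8 were higher and 1 lower in TZM over DC, and 9 were higher and 0 lower in TZM over microglia.

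Trim47 and Trim35 had the lowest adjusted p of all members in TZM over DC. Trim35, first described in mice as a haemopoietic lineage switch gene and later as a ligase of IRF7, was at 6.98, 6.16 and 6.53 in TZM, 6.58, 6.71 and 6.69 in microglia and 8.70, 8.50 and 8.60 in DC. The macrophage populations overlapped, and every DC array was above them. Trim35 was 4.13-fold lower in TZM than in DC (log2 fold change -2.05, SE 0.18, adjusted p = 6.2e-05) and 3.85-fold lower in microglia than in DC (-1.95, SE 0.18, adjusted p = 6.1e-05). Its log2 fold change in TZM over microglia was -0.10 (adjusted p = 0.78). Irf7, whose product it is reported to mark for destruction, was at 7.63 ± 0.09 in TZM, 4.70 ± 0.25 in microglia and 7.40 ± 0.18 in DC, an order other than that of Trim35. These are RNA levels, and the IRF7 protein was not measured.

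Trim47, a ligase first described in astrocytoma, was at 6.98, 6.93 and 7.04 in TZM, 7.51, 7.53 and 7.45 in microglia and 5.53, 5.53 and 5.69 in DC. The 3 populations did not overlap, with microglia highest and DC lowest. It was 2.64-fold higher in TZM than in DC (log2 fold change 1.4, SE 0.07, adjusted p = 1.4e-06) and 3.76-fold higher in microglia than in DC (1.91, SE 0.07, adjusted p = 1.5e-07). In TZM over microglia the log2 fold change was -0.51 (SE 0.07, adjusted p = 0.00071), short of the minimum. Trim65, the next protein-coding gene to Trim47, has been given above, with smaller differences from DC.

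Trim59, a membrane-anchored member linked to proliferation, was at 4.02, 4.29 and 3.47 in TZM, 3.72, 3.31 and 4.08 in microglia and 6.14, 5.52 and 5.67 in DC. Only DC replicate 1 reached a level of 6, and the macrophage populations overlapped, with none above 4.29. Trim59 had a log2 fold change of -1.85 in TZM over DC (SE 0.27, adjusted p = 0.0012) and -2.07 in microglia over DC (SE 0.27, adjusted p = 0.00047). Trim35, Trim47 and Trim59 kept their calls against DC in each alternative that tested them.

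Trim7, which binds the glycogen primer glycogenin, was at 4.64, 4.90 and 4.68 in TZM, 3.98, 4.26 and 4.16 in microglia and 5.53, 5.01 and 5.12 in DC. All levels were under 6 and no populations overlapped. Its log2 fold change was -1.09 in microglia over DC (SE 0.14, adjusted p = 0.00054; -0.93 without DC replicate 1), 0.61 in TZM over microglia (adjusted p = 0.017) and -0.48 in TZM over DC (adjusted p = 0.048). Its neighbour Trim41, at 6.03 to 6.61 in all arrays, had no log2 fold change beyond -0.17.

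**Figure D4:**
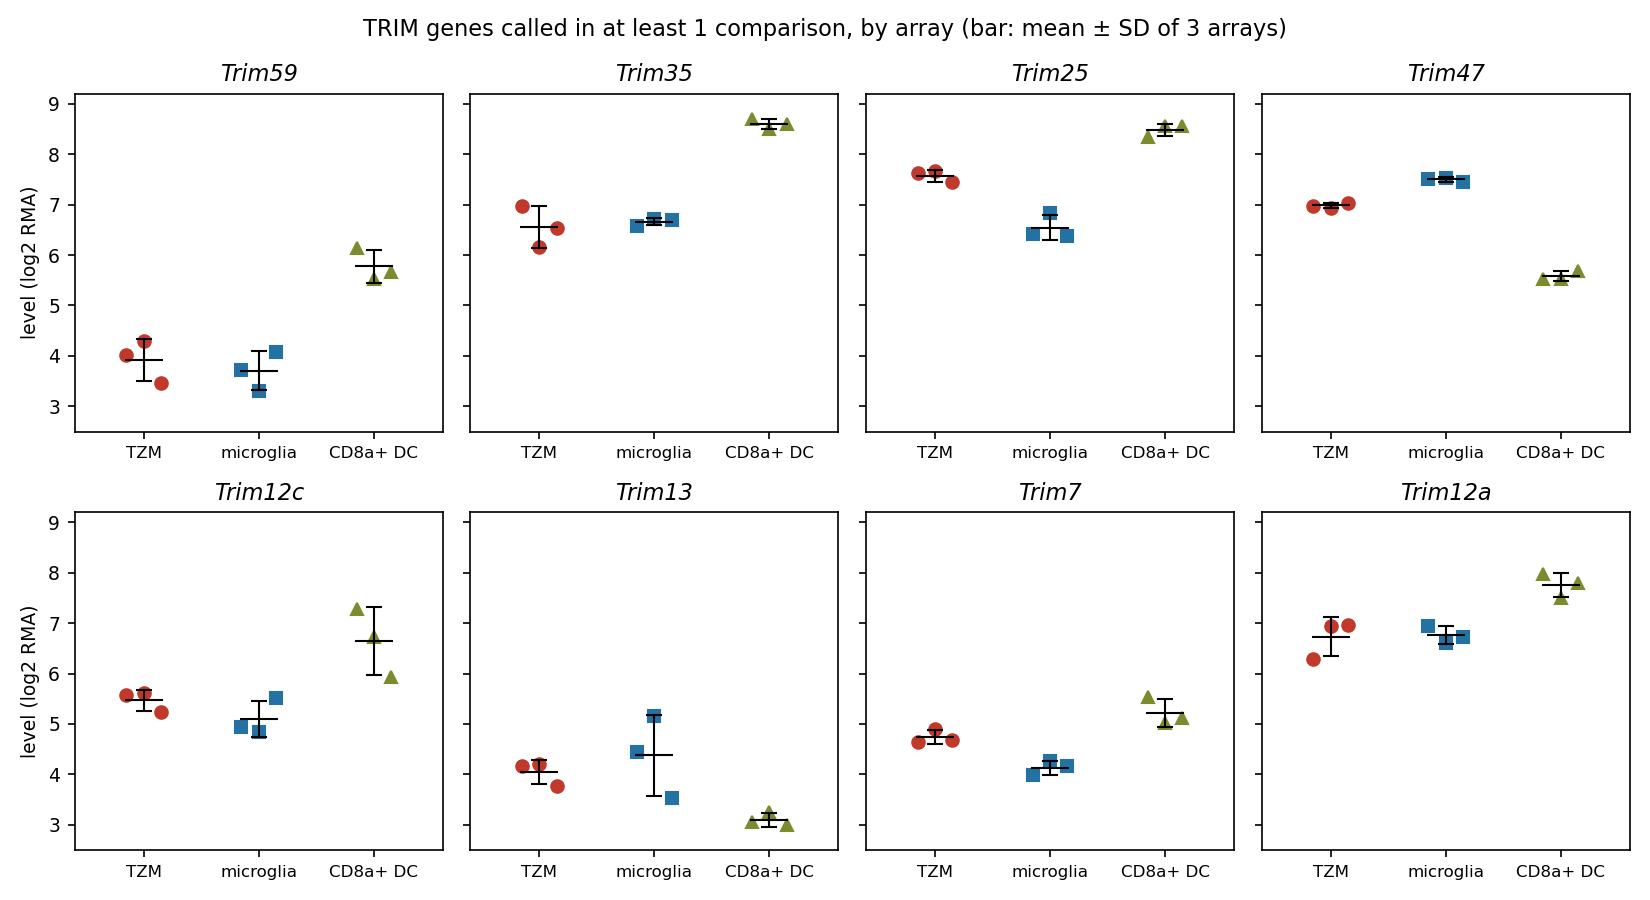
Log2 RMA levels (vertical axis) of the 8 called TRIM genes in the 3 arrays of TZM, microglia and DC (points), with mean and SD (black bars). DC lie apart from both macrophage populations for Trim35, Trim59, Trim12a, Trim12c and Trim13, and Trim25, Trim47 and Trim7 separate all 3 populations.

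In the group with cytoskeletal or muscle roles 0 of 7 members were called by limma (1, 1 and 2 at an unadjusted p under 0.05 in TZM over DC, TZM over microglia and microglia over DC), and 6 were under 6 in every array. The exception was Trim36, a microtubule-associated ligase, at 5.24, 5.41 and 5.10 in TZM, 6.29, 6.25 and 6.18 in microglia and 5.41, 5.40 and 5.08 in DC. Microglia were above both other populations without overlap. Its log2 fold change was -0.99 in TZM over microglia (SE 0.11, adjusted p = 0.00032) and 0.94 in microglia over DC (SE 0.11, adjusted p = 0.00027), just short of the minimum. In TZM over microglia it was past it under median centring, quantile normalization and array weights, and without TZM replicate 2 or microglia replicate 3, up to -1.07. Trim67 had a log2 fold change of 0.30 in TZM over DC (adjusted p = 0.039) at levels of 4.54 to 5.07.

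Among the 4 members with NHL repeats, Trim2, a ligase of neurofilament light chain known from neurons, was at 4.40, 4.34 and 4.38 in TZM, 5.25, 5.06 and 5.19 in microglia and 4.20, 4.18 and 4.41 in DC. Microglia again lay above both, with log2 fold changes of -0.80 in TZM over microglia (SE 0.08, adjusted p = 0.00017) and 0.91 in microglia over DC (SE 0.08, adjusted p = 4.9e-05), short of the minimum and at levels under 6. Of 6 neuron markers 0 were called in these comparisons, and their median level was 4.02 to 4.12 in TZM, 4.13 to 4.33 in microglia and 3.92 to 3.97 in DC. The neuronal Snap25 had a log2 fold change of -0.53 in TZM over microglia (adjusted p = 0.00054). The part of neuronal RNA in the levels of Trim2 and Trim36 was not tested. Trim32, at 6.12 to 6.15 in TZM, 6.22 to 6.81 in microglia and 5.68 to 6.15 in DC, had a log2 fold change of 0.56 in microglia over DC (adjusted p = 0.049), and its highest level was that of microglia replicate 2. Trim3 and Trim71 had log2 fold changes between -0.13 and 0.14.

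The chromatin members differed little between the 3 populations. Trim28, the corepressor of KRAB zinc finger proteins, was at 7.42 ± 0.13 in TZM, 7.66 ± 0.19 in microglia and 7.52 ± 0.06 in DC, and Trim33, a regulator of SMAD4, at 7.69 ± 0.17, 7.82 ± 0.00 and 7.85 ± 0.14. Trim24, a coregulator of nuclear receptors, was at 6.70, 6.89 and 6.71 in TZM, 6.95, 6.90 and 7.11 in microglia and 7.14, 7.03 and 6.90 in DC. TZM lay below both other populations without overlap, by 0.22 to 0.26 on the log2 scale, which did not pass the test (adjusted p = 0.15 against microglia and 0.093 against DC). Trim66 was at 4.35 to 4.71 in every array. Over the 4 genes the largest difference was -0.26, and by limma 0 had an adjusted p under 0.05 in any comparison, while an unadjusted p under 0.05 was reached by 1 in TZM over DC (Trim24), 2 in TZM over microglia (Trim24 and Trim28) and 0 in microglia over DC. A p that misses the threshold does not show equal levels.

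Trim37, needed for peroxisome import, was at 6.73, 6.69 and 6.58 in TZM, 5.73, 5.68 and 6.18 in microglia and 6.30, 6.04 and 6.50 in DC. TZM lay above both, with log2 fold changes of 0.80 in TZM over microglia (SE 0.15, adjusted p = 0.0066) and 0.38 in TZM over DC (adjusted p = 0.13). The erythroid members Trim10 and Trim58, and the membrane repair gene Trim72 of muscle, stayed between 4.07 and 4.74.

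Of the 19 members in none of these groups 14 were under 6 in every array. Beside Trim35, Trim47 and Trim7, Trim11 had a log2 fold change of -0.45 in TZM over DC (adjusted p = 0.0070), at 5.70, 5.47 and 5.75 in TZM and 6.07, 6.17 and 6.01 in DC. Trim39 had one of -0.58 in TZM over microglia (adjusted p = 0.017), at levels of 3.62 to 4.55. Trim44 was at 7.34 to 7.91 in TZM, 6.78 to 7.69 in microglia and 7.71 to 7.87 in DC, with its lowest level in microglia replicate 2. The remaining 13 had an adjusted p of 0.067 or more in each comparison.

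TZM replicate 2 lay at least 0.5 from the TZM median for 4 of 59 members (6.78%, against 6.80% of all genes), Trim21, Trim30d, Trim34a and Trim56. Microglia replicate 2 did so for 3 (5.08%, against 2.94%), Trim13, Trim32 and Trim44. Each other array did so for 0 to 2. Without TZM replicate 2 the count of members called was 5 in TZM over DC, Trim34a taking the place of Trim12c, and 1 in TZM over microglia, which was Trim36.

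**Figure D5:**
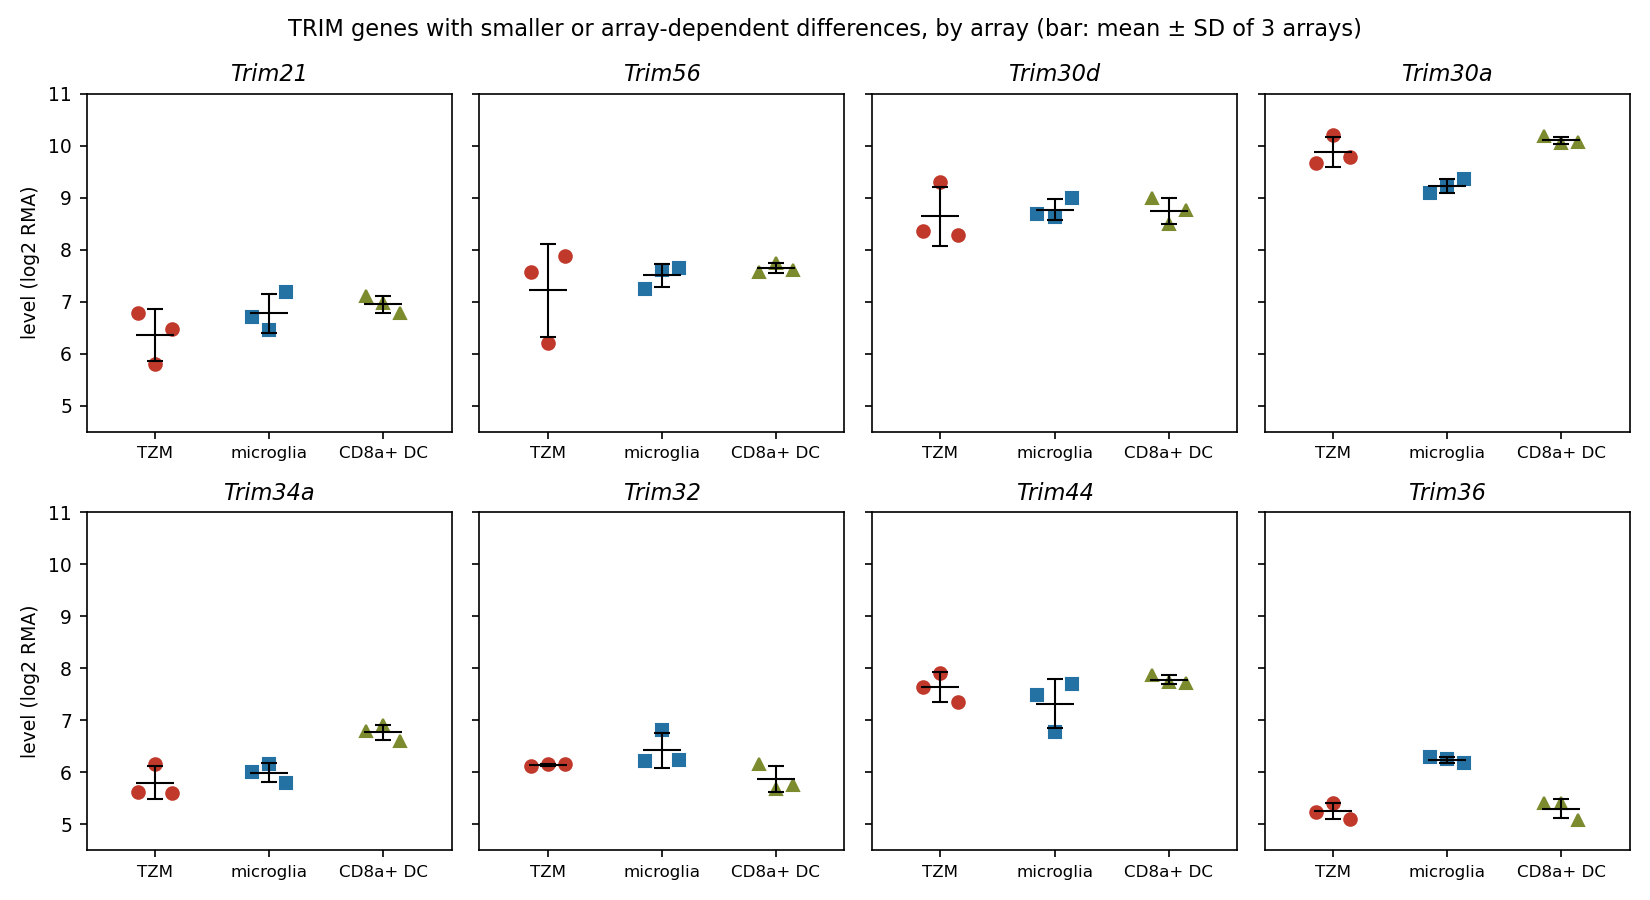
Log2 RMA levels (vertical axis) of 8 TRIM genes with smaller or array-dependent differences in the 3 arrays of TZM, microglia and DC (points), with mean and SD (black bars). TZM replicate 2 is the low point of Trim21 and Trim56 and the high point of Trim30d, and microglia lie apart above the others for Trim36.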

How the data were processed

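The deposited values are log2 levels, made by the authors with Affymetrix Expression Console 1.3.1 and RMA per the submitters' processing notes, a method that subtracts background, equalises arrays by quantiles and joins the probes of a set; the genome build is not given in the sources used here. The table held 35556 probe sets, of which 21789 had 1 gene symbol in the platform annotation, 1621 several and 12146 none. Symbols were updated by Entrez identifier through the RefSeq gene table of GRCm38.p6 for 21698 probe sets. The brightest probe set per gene left 19938 genes. No member's symbol changed.

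Tests used limma 3.58.1 under R 4.3.3, with lmFit and eBayes run once on the 9 arrays and population as the sole factor, and Benjamini-Hochberg adjustment over all 19938 genes. All adjusted p-values are limma's. The fit was tested on simulated data. Replicates are labelled as biological, with nothing said of separate animals, so the p-values set a difference against the spread between these samples. The number of arrays limits the precision. The members, the gene lists and the tests were chosen with earlier results of these data known. All members called in a comparison were named with values, up to 24, and up to 4 called genes per further list and comparison, beside genes named for a role in the text; Tab2, Tab3, Snap25, Ifit1 and the members with smaller differences were chosen after their values were seen. Listed genes that no probe set names alone were not analysed here. Deviations of same-numbered replicates from their group means correlated at -0.15 to 0.13, so the numbers were not taken as pairs. As alternatives, the minimum fold change was dropped, genes were kept only with a level of 6 or more in 3 or more arrays, and arrays were median centred or quantile normalized. Probe sets of a gene were also averaged, or all of them tested; the fit was also made on the compared populations only, with trended and robust eBayes, with array weights, with the replicate block, and leaving out every array in turn. The counts of 3 gene lists without TZM replicate 2 were added after seeing the data.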

Additional observations from a re-analysis of the deposited data

How the results depend on the processing

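The counts of called TRIM genes were 5 in TZM over DC, 1 in TZM over microglia and 7 in microglia over DC. Without the minimum fold change they became 10, 8 and 15. With the filter on level they became 3 and 3 in TZM over DC and microglia over DC. The calls lost were those of Trim12c, Trim59, Trim13 and Trim7, which the filter did not keep. The count in TZM over microglia became 2 with median centring and 2 with array weights, where Trim36 joined Trim25, and with quantile normalization it was 1, Trim36 in place of Trim25. With each array left out in turn the counts ran from 3 to 6, 0 to 1 and 5 to 7. With the replicate block they were 4, 1 and 7, and the call lost was Trim12c in TZM over DC. Without TZM replicate 2, an alternative chosen after seeing the data, the ubiquitin enzyme list had 3 calls in TZM over DC and 2 in TZM over microglia, against 1 and 0 with all arrays. Where a call changed with a setting the cause was not tested. Of the single-gene values under alternatives, 999 stayed on their side of the threshold, 23 fell below it and 34 passed it, and 0 changed direction among called values. The 34 include values that passed only because the minimum fold change was dropped, as those of Trim2 and Trim30a did. Median centring and quantile normalization moved the median log2 fold change of all genes by at most 0.05 and 0.03. Levels under 6 limit what can be said of the 33 members that never reached it.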

Other observations

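Of 5 listed genes built like TRIM genes but named otherwise, 0 were called in TZM over DC by limma (0 at an unadjusted p under 0.05), 1 in TZM over microglia and 2 in microglia over DC. Of all genes 8.74%, 7.65% and 11.2% were called in these comparisons, and 19.7%, 17.3% and 25.6% of those at a level of at least 6 in at least 3 arrays. Mefv, which encodes pyrin, a sensor of an inflammasome with B-box and coiled coil, was at 6.90 ± 0.39 in TZM, 4.27 ± 0.17 in microglia and 6.91 ± 0.15 in DC, with log2 fold changes of 2.63 in TZM over microglia (adjusted p = 2.0e-05) and -2.64 in microglia over DC (adjusted p = 1.2e-05). Mid1, a microtubule-bound relative of Trim36, was at 7.13 ± 0.24 in TZM, 7.94 ± 0.19 in microglia and 6.93 ± 0.14 in DC, and was called higher in microglia over DC (1.01, adjusted p = 0.00093). Pml, the organiser of nuclear bodies, had log2 fold changes of 0.64 in TZM over microglia (adjusted p = 0.010) and -0.65 in microglia over DC (adjusted p = 0.0071), short of the minimum. Mid2 and Bspry stayed at or under 4.73.

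Among 12 listed partners of the chromatin members, 0 were called in TZM over DC (limma, 2 with an adjusted p under 0.05 alone), 1 higher and 1 lower in TZM over microglia, and 1 higher in microglia over DC. That is 0%, 16.7% and 8.33% of the list, beside 8.74%, 7.65% and 11.2% of all genes. Of all genes at a level of at least 6 in at least 3 arrays, 19.7%, 17.3% and 25.6% were called. Smad3, a signal carrier of TGF-beta, was at 6.67 ± 0.20 in TZM, 8.43 ± 0.15 in microglia and 6.35 ± 0.06 in DC, with log2 fold changes of -1.76 in TZM over microglia (adjusted p = 1.2e-05) and 2.08 in microglia over DC (adjusted p = 2.5e-06). Chd3, a chromatin remodeller recruited by Trim28, was higher in TZM than in microglia by 1.08 (adjusted p = 0.00051). Setdb1, the histone methyltransferase recruited by Trim28, had a log2 fold change of 0.64 in microglia over DC (adjusted p = 0.0015), short of the minimum.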
